A study of Mus musculus with 24 samples.

Results

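The members described here are the genes of the regulated exocytosis machinery on a whole-genome mouse array: the syntaxins, SNAP-25 and VAMP proteins that form SNARE complexes, the syntaxin-binding, Unc13, RIM and complexin proteins that prime and clamp them, the synaptotagmins and synaptotagmin-like proteins, and Rab3 with its regulators. They were chosen by name, from the symbols Syt, Sytl, Stx, Stxbp, Vamp, Snap, Rab3, Rims, Unc13 and Cplx followed by digits or letters, and had to be well above background in a channel on at least 6 of the 24 arrays. This left 79 of the 89 genes that the pattern matched, among 18085 genes tested in all, after 5 Snapc genes (subunits of a transcription complex) had been dropped. Each gene is given by its brightest probe. The pattern also caught 12 genes from Rab30 to Rab39, small GTPases of other membrane routes that are not Rab3 proteins, so 67 members belong to the machinery by name. The pattern uses names and detection only, not the ratios, but it was drawn up with earlier results of these data known.

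Pancreatic islets of individual female NOD/LtJ (NOD) mice, in which diabetes arises by autoimmunity, were compared by 2-colour hybridisation with islets of female NOD.B10Sn-H2b/J (NOD.B10) mice, which share the NOD background but carry another MHC haplotype and are the healthy control. There were 6 NOD mice at each of 4 ages, 10 days, 4 weeks, 12 weeks and 20 weeks, untreated as far as the labels say, and their RNA was labelled with Cy5. On every array the Cy3 channel held RNA pooled from 6 age-matched NOD.B10 females. A ratio is therefore 1 NOD mouse over 1 pool, its spread over 6 mice leaves out the spread among control mice, and a difference between ages holds the difference between 2 pools. The islets came from collagenase digestion and were not sorted by cell type, so the RNA is that of all cells in the preparation, and in such bulk RNA fewer cells of a type and less RNA per cell cannot be told apart.

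In endocrine cells, as in neurons, a vesicle or granule fuses with the plasma membrane when a SNARE on the vesicle (a VAMP) zippers up with SNAREs on the plasma membrane (a syntaxin and SNAP-25), and a synaptotagmin couples this step to calcium. Syntaxin-binding proteins hold the syntaxin, Unc13 and RIM proteins prime and position the vesicle, complexins clamp the partly zippered complex, and Rab3 and Rab27 with their effectors tether it. In beta cells this machinery releases insulin, while related family members serve the Golgi and endosomes of every cell and the lytic granules of cytotoxic lymphocytes.

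The share of probes well above background ran from 42.3% to 64.6% in the NOD channel and from 39.4% to 60.4% in the pool channel, with the lowest NOD value in 20 week replicate 5 and the lowest pool values at 12 weeks. Ratios of mice of the same age correlated at 0.19 or above over all genes (median 0.762). Between ages, 11 of 216 array pairs fell below -0.3, the lowest at -0.541, although all arrays had the same dye orientation as the labels give it. Of the 20 beta cell markers listed, 18 were matched by name among the genes tested, as were all 20 other endocrine markers. Whether the rest lacked signal or only a matching name was not looked at.

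A member was called where its mean log2 ratio, or its difference between ages, was at least 2-fold in size with an adjusted p under 0.05 by limma's moderated test with Benjamini-Hochberg adjustment over all 18085 genes. At 10 days, 6 of 79 members were called higher in NOD islets (1.61% of all genes were) and 0 lower (2.36% of all genes), against 15 members lower at an unadjusted p under 0.05. At 4 weeks, 0 were called higher (1.91% of all genes; 16 members at an unadjusted p under 0.05) and 3 lower (0.879%). At 12 weeks 1 was called higher (2.09%) and 1 lower (1.42%). At 20 weeks 4 were called higher (3.87%) and 7 lower (1.23%). The calls were thus all higher at 10 days and all lower at 4 weeks. At 20 weeks the side with more calls rested on 1 mouse, since without replicate 5 there were 5 higher and 1 lower, and array weights gave the same counts. The median ratio over all members stayed small, at 0.15, -0.01, -0.05 and -0.11 from the youngest age to the oldest, beside 0.01, -0.01, 0.03 and -0.00 over all genes. By the test alone, with no floor on the fold, 34 members were higher and 14 lower at 10 days (27.2% and 23.9% of all genes), 15 and 26 at 4 weeks (24.7% and 26.4%), 13 and 17 at 12 weeks (21.3% and 16.1%), and 13 and 32 at 20 weeks (23.9% and 25.1%).

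The scaling of the arrays moved these splits. With each array centred on its median in place of loess, 25 members were called higher and 0 lower at 10 days, 0 higher and 8 lower at 4 weeks, 18 higher and 1 lower at 12 weeks, and 1 higher and 15 lower at 20 weeks. The median over all genes tested moved to 0.38, -0.15, 0.50 and -0.21 in that order. Of all 18085 genes, 2702, 135, 4259 and 453 were then called higher and 53, 645, 31 and 1371 lower. By the F test over the 4 ages, 67 of 79 members differed (84.8%) against 76% of all genes, which places the members near the background. In all, 23 members were called in at least 1 comparison and 56 in none. A mean ratio under 0.5 on the log2 scale, in either direction, at every age was found in 38 members. The counts of 23, 56 and 38 were not made over all genes, so they have no background share and are a description of the members only.

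**Figure D1:**
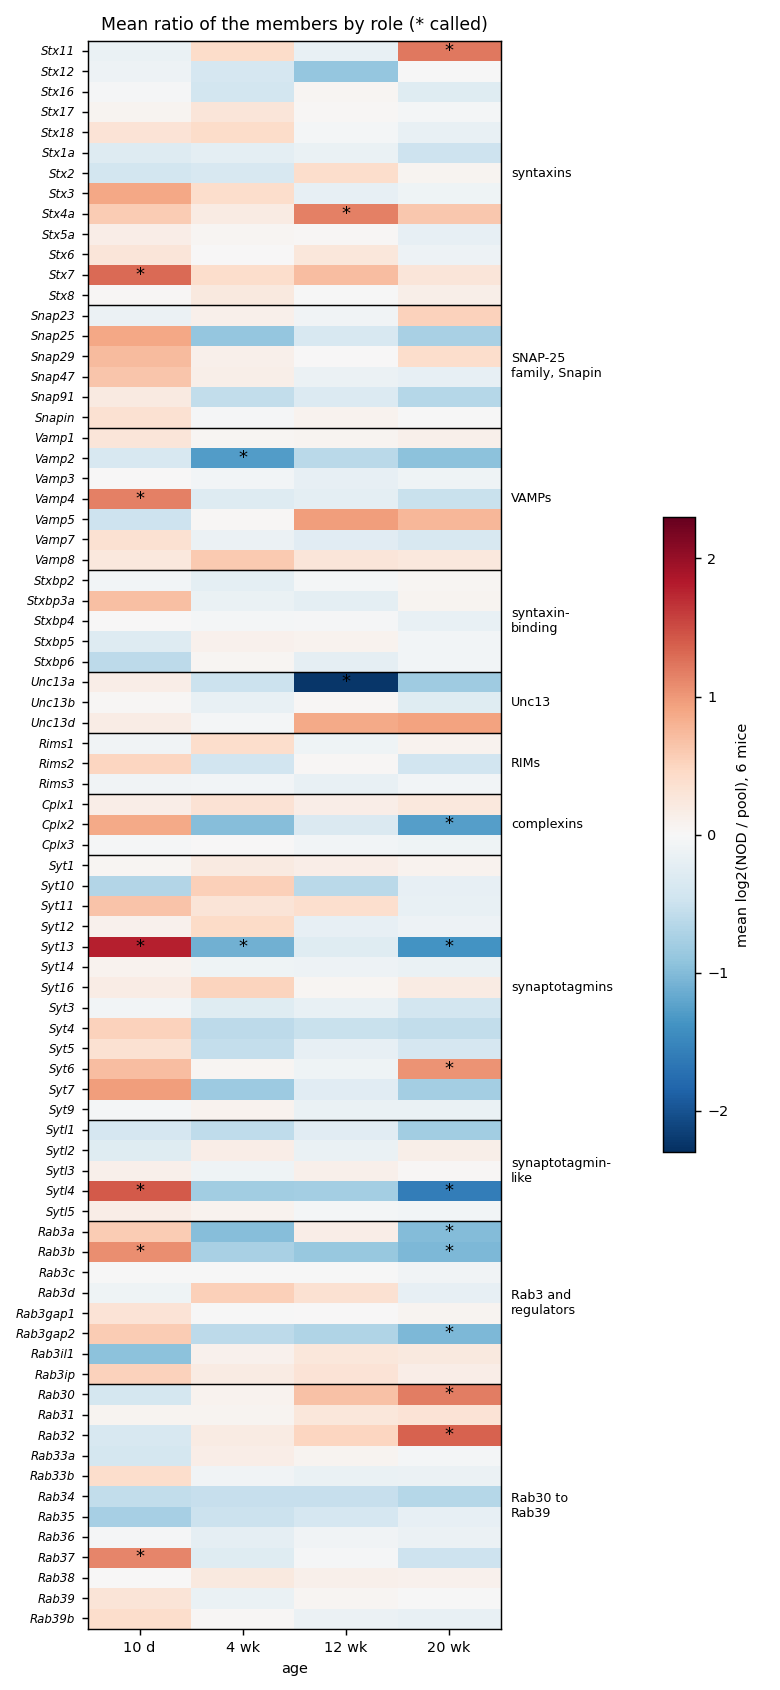
Mean log2 ratio of NOD islets over the NOD.B10 pool for the members (rows, grouped by role) at the 4 ages (columns), over 6 mice each; red is higher in NOD, blue is lower, and a star marks a called value. Stars lie on single members of most groups rather than on whole groups: the syntaxins hold 3, the synaptotagmins 4 and the VAMPs 2.

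Of the 13 syntaxins, which bring the Q-SNARE to the target membrane, 1 was called at each of 10 days, 12 weeks and 20 weeks. Stx1a, the plasma membrane syntaxin with which insulin granules fuse, was not called at any age. Its ratio was below 0 in all 6 mice at 10 days, 4 weeks and 20 weeks and in 5 of 6 at 12 weeks, and the means were -0.30 ± 0.12, -0.23 ± 0.09, -0.15 ± 0.13 and -0.48 ± 0.09 (SD, n = 6), each under 2-fold although past the test alone (adjusted p = 1.46e-05, 4.90e-04, 0.0193 and 4.62e-08, limma). Stx7, a syntaxin of late endosomes, ran from 0.85 to 1.78 at 10 days (median 1.36) and averaged 1.30 ± 0.37 (SD, n = 6), a 2.46-fold higher level in NOD islets (adjusted p = 1.23e-08, limma). At 20 weeks it ran from -0.50 to 0.74, below all 10 day mice, and the fall of 1.01 to that age lay so near 2-fold that leaving out any of 5 mice (10 day replicates 1, 5 and 6, 20 week replicates 5 and 6) ended the call, at -0.98 to -0.85.

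Stx4a, the plasma membrane syntaxin found in most cells, was called at 12 weeks only, at 1.15 ± 0.30 (SD, n = 6, range 0.80 to 1.70; adjusted p = 1.68e-08, limma). Its other probe read 0.54 there. Stx11, a syntaxin of lymphocyte and macrophage granules, lay at -0.98 to 0.30 at 10 days, -0.83 to 1.36 at 4 weeks and -0.73 to 0.16 at 12 weeks, then at 0.42 to 2.46 at 20 weeks. The 20 week mice were all above the 10 day and 12 week mice but overlapped the 4 week mice, and their mean was 1.21 ± 0.90 (SD, n = 6; adjusted p = 6.54e-04, limma). Without 20 week replicate 2, the highest, the mean was 0.96 and the gene was no longer called. Among the syntaxins not called, Stx12, an endosomal syntaxin, reached -0.89 ± 0.22 at 12 weeks and Stx3, an apical plasma membrane syntaxin, 0.89 ± 0.57 at 10 days (SD, n = 6). Stx2, Stx5a, Stx6, Stx8, Stx16, Stx17 and Stx18, of which Stx5a, Stx16 and Stx18 serve the Golgi and endoplasmic reticulum, stayed between -0.42 and 0.42 at every age.

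The ratio of Snap25, the neuronal and endocrine Q-SNARE that pairs with Stx1a, ran from 0.10 to 1.63 at 10 days (median 1.01), from -1.28 to -0.71 at 4 weeks (median -0.82), from -0.59 to 0.03 at 12 weeks (median -0.43) and from -2.23 to -0.03 at 20 weeks (median -0.64). Every 10 day mouse was above every mouse of the older ages. None of its age means reached 2-fold (0.88 ± 0.59, -0.88 ± 0.21, -0.37 ± 0.25 and -0.75 ± 0.80, SD, n = 6), but the fall from 10 days to 4 weeks did, by 1.77 on the log2 scale (SE 0.29, adjusted p = 3.24e-05, limma). The 2 other Snap25 probes read -1.13 and -0.50 over this interval. Snap23, its relative in most cell types, averaged -0.13, 0.11, -0.08 and 0.52. Snap29 and Snap47, SNAREs of internal membranes, averaged 0.73 and 0.64 at 10 days and were not called. Snap91, which despite its symbol is the clathrin assembly protein AP180, and Snapin, a SNAP-25 binding protein, were not called either, at -0.65 to 0.20 and -0.03 to 0.35 over the ages.

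Among the 7 VAMPs, the vesicle SNAREs, 2 were called at an age. Vamp4, which works between the trans-Golgi network and endosomes, ran from 0.68 to 1.65 at 10 days and averaged 1.15 ± 0.31 (SD, n = 6; adjusted p = 2.12e-05, limma). It was at -0.74 to -0.05 at 4 weeks, so that the ages did not overlap, and the difference was -1.45 (SE 0.27, adjusted p = 1.20e-04). The other Vamp4 probe read 0.41 at 10 days and -0.35 for this difference. Vamp2, the R-SNARE of insulin granules and synaptic vesicles, was lower at 4 weeks in all 6 mice, between -1.47 and -1.15, with a mean of -1.29 ± 0.13 (SD, n = 6; adjusted p = 2.73e-08, limma). It was -0.38 ± 0.30, -0.62 ± 0.12 and -0.94 ± 0.48 at 10 days, 12 weeks and 20 weeks (SD, n = 6). That call rests on 1 of 3 probes, since the others read -0.29 and -0.22 at 4 weeks.

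Vamp5, known from muscle and endothelium, went the other way. Its ratio was -1.25 to 0.53 at 10 days, -0.57 to 0.91 at 4 weeks, 0.69 to 1.29 at 12 weeks and 0.20 to 1.39 at 20 weeks. The rise from 10 days to 20 weeks was 1.25 (SE 0.31, adjusted p = 0.00157, limma), although the groups overlapped, and with median-centred arrays it was 0.19 and not called. Vamp1, Vamp3, Vamp7 and Vamp8, of which Vamp3, Vamp7 and Vamp8 are endosomal and lysosomal R-SNAREs, stayed between -0.38 and 0.61.

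Of the syntaxin-binding proteins, Stxbp2 (Munc18-2), which serves leukocyte and epithelial granules, stayed between -0.22 and 0.04. Stxbp3a (Munc18c, the Stx4 partner) averaged 0.69 ± 0.25 at 10 days (SD, n = 6), and Stxbp4, Stxbp5 (tomosyn) and Stxbp6 (amisyn) stayed between -0.60 and 0.09.

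Of the priming proteins, Unc13a (Munc13-1), which opens the syntaxin for SNARE assembly, gave the lowest mean ratio of any member at any age. At 12 weeks all 6 mice lay between -2.51 and -1.72 and the mean was -2.25 ± 0.30 (SD, n = 6; adjusted p = 3.87e-11, limma). At 10 days it was at -0.02 to 0.52, at 4 weeks at -0.99 to 0.07 and at 20 weeks at -1.36 to -0.24, so no other age overlapped 12 weeks. Its pool channel stood at 9.31 at 12 weeks on the log2 scale, against 7.05, 7.71 and 8.41 at 10 days, 4 weeks and 20 weeks, while its NOD channel means ran from 7.06 to 7.58. The value belongs to 1 of 2 probes: the other read -0.24 at 12 weeks, and its differences from 4 to 12 weeks (0.35) and from 12 to 20 weeks (-0.38) had the opposite sign to those of the brightest probe (-1.75 and 1.42, SE 0.19; adjusted p = 1.20e-06 and 2.24e-05, limma). With median-centred arrays these 2 differences were -0.68 and 0.24, neither called. Unc13b (Munc13-2) stayed between -0.29 and 0.03. Unc13d (Munc13-4), the primer of lytic granules in cytotoxic lymphocytes, was 0.87 ± 0.30 at 12 weeks and 0.92 ± 0.49 at 20 weeks (SD, n = 6), higher in all 12 mice but under 2-fold, against 0.16 ± 0.55 and -0.05 ± 0.22 before.

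The RIM proteins, scaffolds that bind Rab3 at the release site, were not called: Rims2, the islet form, averaged 0.49 ± 0.20, -0.44 ± 0.07, 0.03 ± 0.17 and -0.44 ± 0.12 in order of age (SD, n = 6), and Rims1 and Rims3 stayed between -0.16 and 0.40. The pool was not well above background for Rims2 on any array at 10 days or 12 weeks, so the measured means at these ages have only a bound. At 10 days the NOD level was at least 1.41-fold higher. At 12 weeks the bound was 1.02-fold, the mice ran from -0.16 to 0.22 and the mean did not pass the test. No higher NOD level was shown there. Such a bound sets the NOD mean against the higher of the dim signal and the lowest signal well above background on each array. Of the complexins, which clamp SNARE complexes until calcium arrives, Cplx2 was at 0.02 to 1.47 at 10 days (median 1.11), -1.55 to -0.43 at 4 weeks, -0.87 to 0.31 at 12 weeks and -3.25 to -0.53 at 20 weeks. Its 20 week mean was -1.26 ± 1.06 (SD, n = 6; adjusted p = 3.74e-04, limma) and the others were 0.87 ± 0.63, -0.98 ± 0.38 and -0.32 ± 0.46. The 3 other Cplx2 probes read -0.63 to -0.43 at 20 weeks. Cplx1 stayed between 0.15 and 0.33 and Cplx3, just inside the filter with 6 arrays above background, between -0.10 and 0.01.

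Of the 13 synaptotagmins, Syt13 had the widest movement of any member. Syt13 is an atypical, calcium-independent synaptotagmin of endocrine cells. Its 10 day mice ran from 0.79 to 2.67 (median 2.05), its 4 week mice from -1.48 to -0.51 (median -1.16), its 12 week mice from -0.79 to 0.28 (median -0.24) and its 20 week mice from -4.60 to -0.23 (median -0.70). The 10 day group stood apart from every older group, and 1 mouse at 20 weeks, replicate 5, stood far below the rest. The means were 1.79 ± 0.79, -1.10 ± 0.33, -0.28 ± 0.36 and -1.37 ± 1.64 (SD, n = 6), called higher at 10 days (3.46-fold, adjusted p = 2.53e-04, limma) and lower at 4 and 20 weeks (adjusted p = 0.0141 and 0.00314). The other Syt13 probe read 0.66 at 10 days, -0.30 at 4 weeks and -0.71 at 20 weeks.

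Syt7, the calcium sensor with high affinity that is a main trigger of insulin and glucagon release, moved in the same directions with less spread. Its values were 0.24 to 1.33 at 10 days, -1.19 to -0.51 at 4 weeks, -0.50 to 0.03 at 12 weeks and -1.87 to -0.12 at 20 weeks. It was called between ages and not at any age, the means being 0.96 ± 0.50, -0.84 ± 0.24, -0.27 ± 0.18 and -0.78 ± 0.66 (SD, n = 6). The 3 other Syt7 probes read -0.84 to -0.23 from 10 days to 4 weeks, against -1.80 for the brightest. Syt4, a synaptotagmin of dense-core vesicles, fell by 1.13 from 10 days to 4 weeks (SE 0.18, adjusted p = 3.05e-05, limma). Its fall of 1.10 to 20 weeks was -0.95 and not called without 20 week replicate 5. Its pool level at 10 days was not well above background on any array, so its 10 day level is at least 1.44-fold higher in NOD and the measured falls from 10 days are against that bound. Syt5, a granule synaptotagmin, averaged 0.35, -0.55, -0.19 and -0.38 and was not called, with the same limit at 10 days (at least 1.27-fold higher).

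Syt6 and Syt10 did not follow this order of ages. Syt6 was 0.71 at 10 days, 0.04 and -0.10 at 4 and 12 weeks, and 1.04 ± 0.48 at 20 weeks (SD, n = 6, range 0.56 to 1.78; adjusted p = 3.53e-06, limma), and 0.98 or 0.89 without replicate 1 or 4, neither called. Syt10 rose by 1.23 from 10 days to 4 weeks and fell by 1.16 from 4 to 12 weeks (SE 0.24 for both). The 20 minus 12 week difference of Syt6 was 0.98 and not called without 20 week replicate 4. Under median centring that difference was -0.15 in place of 1.13, and the 12 minus 4 week difference of Syt10 was 0.24 in place of -1.16, so neither direction held there. Syt1, the fast calcium sensor of synapses, stayed between 0.05 and 0.21, and Syt9, a sensor described in insulin-secreting lines, between -0.15 and 0.08. Syt3, Syt11, Syt12, Syt14 and Syt16 were not called, with means from -0.42 to 0.66.

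Sytl4 (granuphilin), a Rab27a effector that docks insulin granules, was the only one of 5 synaptotagmin-like proteins called. It ran from 0.76 to 2.00 at 10 days (median 1.51), from -1.41 to -0.41 at 4 weeks (median -0.78), from -1.74 to 0.11 at 12 weeks (median -0.58) and from -4.11 to -0.50 at 20 weeks (median -1.09). Again the 10 day mice stood above all others. The 10 day mean was 1.40 ± 0.45 (2.64-fold higher, adjusted p = 6.77e-04) and the 20 week mean -1.58 ± 1.35 (3.00-fold lower, adjusted p = 2.16e-04, limma; SD, n = 6). The other members of the family, Sytl1, Sytl2, Sytl3 and Sytl5, had means from -0.79 to 0.16.

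Of the 8 Rab3 proteins and regulators, Rab3a, the vesicle GTPase of neurons and endocrine cells, changed between every pair of neighbouring ages. It was at -0.19 to 1.10 at 10 days, -1.45 to -0.53 at 4 weeks, -0.29 to 0.57 at 12 weeks and -2.36 to -0.39 at 20 weeks, so that neighbouring ages did not overlap. The difference was -1.57 from 10 days to 4 weeks, 1.13 from 4 to 12 weeks and -1.16 from 12 to 20 weeks (SE 0.27 for each; adjusted p = 6.25e-05, 0.0024 and 0.00318, limma). The last of these was -0.96 with slide as a fixed block and -0.89 without 20 week replicate 5, neither called. Its 20 week mean lay at the 2-fold limit itself (SD 0.71, n = 6; adjusted p = 1.46e-04, limma). The pool channel of Rab3a was 9.28, 11.34, 10.18 and 11.38 in order of age and the NOD channel 9.88, 10.37, 10.34 and 10.38. The pool level was thus high at 4 and 20 weeks and low at 10 days and 12 weeks, and the NOD level differed little over the last 3 ages.

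Rab3b, a secretory paralog, was 1.07 ± 0.52 at 10 days and -0.74 ± 0.22, -0.86 ± 0.27 and -1.04 ± 0.77 afterwards (SD, n = 6), called at 10 days and 20 weeks. Without 10 day replicate 5 or 6 the 10 day mean was 0.99 or 0.96, and without 20 week replicate 5 or 6 the 20 week mean was -0.77 or -0.97, none of them called. The other Rab3b probe read 0.30 and -0.09 at these ages. Rab3gap2, the regulatory subunit of the Rab3 GTPase-activating complex, was -1.04 ± 0.66 at 20 weeks (SD, n = 6; adjusted p = 5.31e-06, limma), and -0.84 or -0.93 and not called without replicate 5 or 6, while Rab3gap1, its catalytic partner, stayed between -0.01 and 0.31. The 2 other Rab3gap2 probes read -0.45 and -0.15 at 20 weeks. Rab3il1, an exchange factor for Rab GTPases, was -0.95 ± 0.26 at 10 days (SD, n = 6), and its ratio was higher by 1.04 at 4 weeks (SE 0.16, adjusted p = 2.18e-05, limma). The NOD channel of Rab3il1 changed by -0.02 over this interval and the pool channel by -1.06. The call was lost without 10 day replicate 2 or 6 or 4 week replicate 3 or 5, at 0.945 to 0.997. The 2 other Rab3il1 probes read 0.205 and 0.803 over this interval. Rab3c, Rab3d, the form best known from acinar granules, and Rab3ip had means from -0.18 to 0.55 and were not called.

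Of the 12 genes from Rab30 to Rab39, Rab37, a GTPase found on secretory granules, was 1.12 ± 0.34 at 10 days (SD, n = 6; range 0.63 to 1.54; adjusted p = 2.54e-07, limma) and near 0 or lower afterwards. Rab32, which serves lysosome-related organelles, climbed from -0.69 to 0.03 at 10 days, through -0.12 to 0.66 and 0.22 to 0.88, to 0.62 to 1.79 at 20 weeks, with a 20 week mean of 1.36 ± 0.41 (SD, n = 6; adjusted p = 1.36e-08, limma). Rab30, a Golgi GTPase, was 1.18 ± 0.70 at 20 weeks (SD, n = 6; adjusted p = 4.43e-06, limma), and 0.98 without replicate 1. The 9 others were not called, with means from -0.76 (Rab35 at 10 days) to 0.41 (Rab33b at 10 days).

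Between ages, 12 members were called lower at 4 weeks than at 10 days (3.85% of all genes) and 2 higher (5.15%). From 4 to 12 weeks 1 was called higher (2.97%) and 2 lower (3.07%), and from 12 to 20 weeks 3 higher (2.01%) and 1 lower (0.404%). From 10 days to 20 weeks 13 were called lower (4.80%) and 5 higher (7.73%). With median-centred arrays the counts higher and lower over these intervals were 0 and 36, 36 and 0, 0 and 37, and 0 and 39. Such counts were not made over all genes with median-centred arrays, so these have no background share. The comparisons from 10 days share the same 10 day mice and pool, so they are given side by side and not as support for each other. In the first interval the synaptotagmins and synaptotagmin-like proteins called were Syt13 at -2.89, Sytl4 at -2.21, Syt7 at -1.80 and Syt4 at -1.13, with Syt10 higher by 1.23 and the other 13 not called. Of the SNAREs and their direct partners, Cplx2 differed by -1.85, Snap25 by -1.77 and Vamp4 by -1.45, and of the GTPases and their regulators Rab3b by -1.81, Rab3a by -1.57, Rab37 by -1.40 and Rab3gap2 by -1.18 (SE 0.18 to 0.51). Over the longer interval to 20 weeks the differences included -3.16 for Syt13, -2.99 for Sytl4, -1.74 for Syt7 and -1.10 for Syt4. They were -2.13 for Cplx2, -1.63 for Snap25, -1.66 for Vamp4 and -1.01 for Stx7, and -2.11 for Rab3b, -1.59 for Rab3a, -1.60 for Rab37 and -1.62 for Rab3gap2. The 5 with a higher ratio at 20 weeks were Rab32 (1.73), Rab30 (1.59), Stx11 (1.37), Vamp5 (1.25) and Rab3il1 (1.17). By the test alone 35 members were lower and 14 higher at 4 weeks than at 10 days (26.9% and 24% of all genes), and 39 lower and 13 higher at 20 weeks than at 10 days (27.7% and 26.2%). In 22 members the 4 week mice all lay below the 10 day mice (14.3% of all genes) and in 7 all above (12.4%). In 23 the 20 week mice all lay below the 10 day mice (14.1%) and in 7 all above (11.9%).

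Slide 1 held 2 mice of each of the first 2 ages. Within it alone the difference from 10 days to 4 weeks was -3.29 for Syt13, -2.34 for Sytl4, -1.97 for Snap25 and -1.88 for Rab3a. With slide as a fixed block 16 members were called lower and 2 higher over this interval. Slide 5 held 2 mice of each of the last 2 ages, and within it the 20 minus 12 week difference was 1.98 for Unc13a, 1.91 for Stx11, 1.28 for Syt6 and -0.96 for Rab3a, with no call at 2 against 2 mice.

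**Figure D2:**
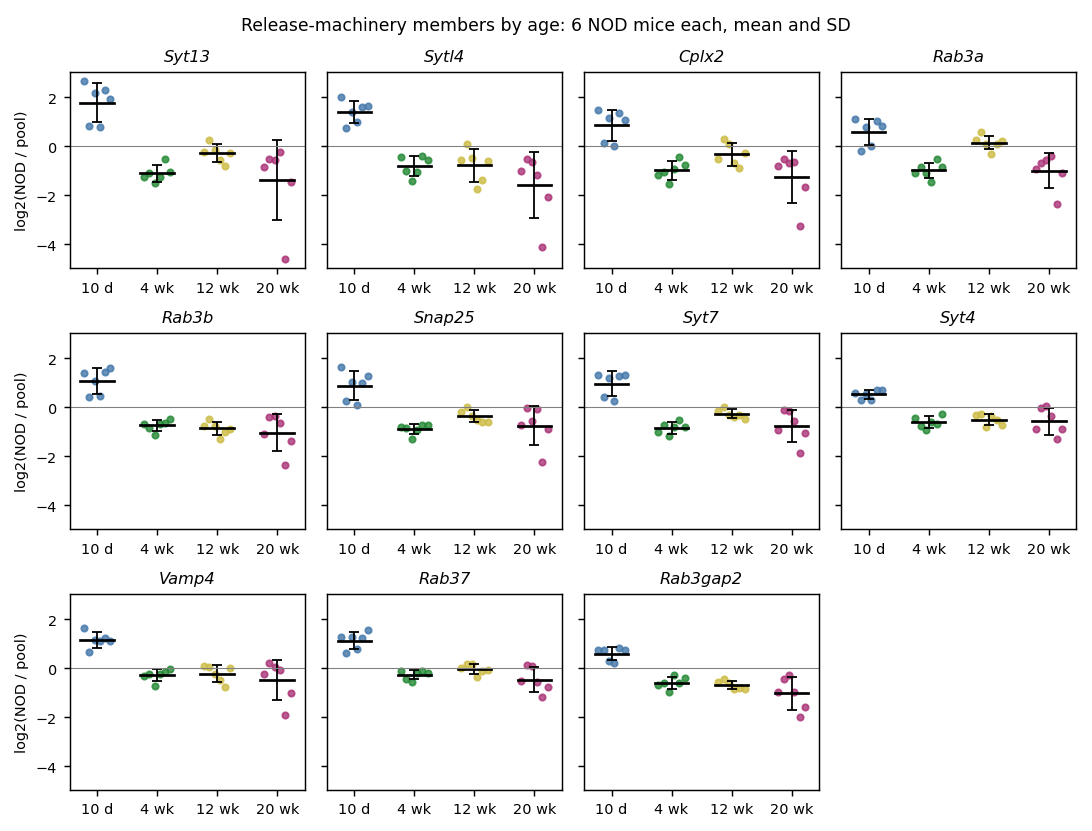
Log2 ratio of each NOD mouse over the pool of its age (vertical axis) for members called lower between 10 days and 4 weeks; points are mice in order of replicate, the long bar is the mean and the whisker the SD over 6 mice. In each panel the 10 day points lie above the 4 week points, and the lowest 20 week point is replicate 5, at -4.60 for Syt13.

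The 20 week calls of these members depended on 1 mouse. Of the 13 members called lower at 20 weeks than at 10 days, replicate 5 had the lowest 20 week ratio in 13, against 41 of all 79 members. The 13 were picked by a fall in the mean ratio to 20 weeks, which a low value in replicate 5 itself enlarges. This mouse also had the smallest share of probes above background in the NOD channel. Its mean ratio over the beta cell markers was -2.55 (the other mice ran from -1.43 to -0.65) and over the other endocrine markers -2.19 (the others from -0.71 to -0.06). Acinar markers went the other way, at 2.05 in replicate 5 and 1.48 in replicate 6 against -2.44 to -0.25 in the other 4 mice. Replicates 5 and 6 were also the lowest over the T cell markers, at 1.29 and 1.77 against 1.96 to 2.56. The part of these in its low values was not tested. Without it, Sytl4 was the 1 member called lower at 20 weeks in place of 7. Among the others, Syt13 was then -0.72, Cplx2 -0.86, Rab3gap2 -0.84, Rab3b -0.77 and Rab3a -0.73. Each of these 5 still passed the test on the side below 0, with adjusted p from 1.91e-05 to 0.00917 (limma), but not at 2-fold. Without replicates 5 and 6, 0 were called lower and 5 higher. The falls from 10 days to 20 weeks depended on it less, with 11 members called lower without both mice.

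In these members the step between 10 days and 4 weeks lay mainly in the control channel. The pool channel also differed between ages over the whole array. Its share of all probes well above background was 44.1% to 48% at 10 days and 52.8% to 59.8% at 4 weeks. It was 39.4% to 43.6% at 12 weeks and 56.2% to 60.4% at 20 weeks. The part of this array-wide difference in the members' pool levels was not tested. Channel levels were taken per array after normalisation between arrays. Since dyes were not swapped, the 2 channels of a gene are open to dye bias, but a channel can be followed over the ages. Of the 12 members called lower from 10 days to 4 weeks, the pool channel rose in 12, by 0.95 to 3.00 (median 1.77), and moved further than the NOD channel in 12. The NOD channel fell in 6 and rose in 6, between -0.56 and 0.79 (median 0.07). Over all 79 members the pool channel rose in 53 (median 0.15) and moved further than the NOD channel in 63. The 12 were picked by a fall in the ratio, which a rise of the pool channel itself produces. These channel counts were made for the members only, not over all genes. Syt13 in the pool went from 11.83 to 14.48 while in NOD it went from 13.62 to 13.38, and Snap25 in the pool from 7.77 to 9.47 while in NOD from 8.65 to 8.58. For the 5 members higher at 20 weeks than at 10 days the pool channel fell in each, by more than the NOD channel rose in 4. Over all 79 members the pool channel moved further than the NOD channel in 56 over this interval. Rab32 changed by 0.34 in NOD and -1.39 in the pool, Rab3il1 by 0.10 and -1.06, Rab30 by 0.77 and -0.83, Vamp5 by 0.54 and -0.70, and Stx11, the exception, by 1.00 and -0.36. Each pool value is 1 pool measured on 6 arrays, so its small SD is technical.

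**Figure D3:**
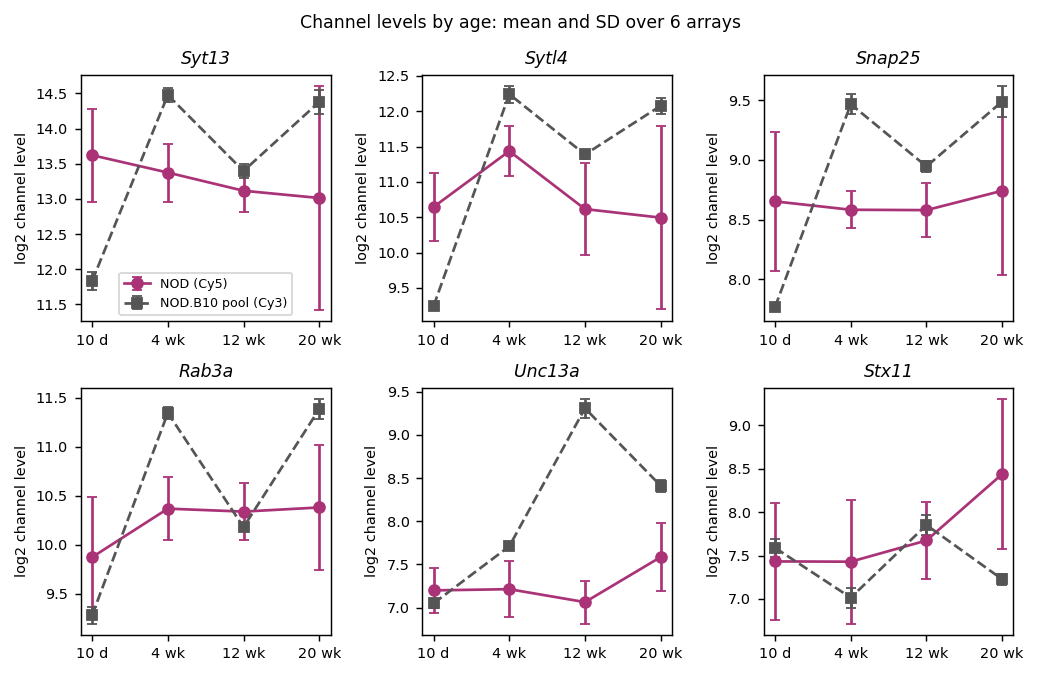
Normalised log2 level of 6 members in the NOD channel (solid, mean and SD over 6 mice) and in the NOD.B10 pool channel (dashed, mean and SD over 6 arrays of the same pool) by age; the vertical axes differ between panels. Pool levels of Syt13, Sytl4, Snap25 and Rab3a rise from 10 days to 4 weeks and are lower at 12 weeks than at 4 and 20 weeks, Unc13a peaks in the pool at 12 weeks, and Stx11 rises in the NOD channel at 20 weeks.

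Markers of the cells of an islet preparation moved at the same ages. Chga, the granin of endocrine granules, averaged 2.20 ± 0.64, -0.73 ± 0.32, -0.15 ± 0.36 and -1.03 ± 0.88 in order of age, and Ins2, an insulin gene, 1.83 ± 0.86, -0.72 ± 0.52, -1.24 ± 0.39 and -1.25 ± 1.30 (SD, n = 6). Of all genes, 1.61%, 1.91%, 2.09% and 3.87% were called higher in order of age, and 2.36%, 0.879%, 1.42% and 1.23% lower. Of 18 beta cell markers tested, 10 were called higher at 10 days, and 6, 5 and 12 lower at the later ages. Of 20 other endocrine markers, 14 were called higher at 10 days, 1 lower at 4 weeks and 3 lower at 20 weeks. Of 13 stellate cell and fibroblast markers 11 were called lower at 10 days, 3 higher at 12 weeks and 5 higher at 20 weeks. Of 22 acinar markers 19 were called higher at 4 weeks, and 2 higher and 2 lower at 10 days. The part of these cells in the members' ratios was not tested. Schwann cells and neurons also use the release machinery. Of their 14 markers, 1 was called higher at each age and 1 lower at 10 days. From 10 days to 4 weeks 3 were called higher and 2 lower (5.15% and 3.85% of all genes). From 10 days to 20 weeks 4 were called higher and 2 lower (7.73% and 4.8%). Of 12 duct cell markers 2 were called higher at 4 weeks and 3 lower at 12 weeks, and of 11 endothelial markers 2 were called lower at 10 days and 1 at 4 weeks.

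The highest age mean was at 12 or 20 weeks in 20 of the 79 members, and it was 0.5 or more in 8 of them, a limit chosen after the values were seen. These 8 were Rab32, Stx11, Rab30 and Syt6, called at 20 weeks, Stx4a, called at 12 weeks, and Vamp5, Unc13d and Snap23, not called at either age. Of 18 T cell markers 10 were called higher at 12 weeks and 14 at 20 weeks, of 14 macrophage and dendritic cell markers 8 and 11 (with 1 lower at 12 weeks), of 12 B and plasma cell markers 5 and 6, and of 10 NK and cytotoxic markers 4 and 5. The shares of all genes called higher at these ages were 2.09% and 3.87%. The mean ratio over the T cell markers ran from 1.11 to 1.92 at 12 weeks and from 1.29 to 2.56 at 20 weeks, with Cd3d, a chain of the T cell receptor complex, at 2.58 ± 0.60 and 3.36 ± 0.64 (SD, n = 6). Stellate cell and fibroblast markers were also higher late. From 10 days to 20 weeks 13 of 13 were called higher (median 2.72), beside 14 of 18 T cell markers (median 1.75). The share of all genes was 7.73%. Whether any of those cells carried the transcripts was not tested. Under median centring Stx11, Rab30 and Syt6 were 0.91, 0.98 and 0.59 at 20 weeks and no longer called.

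**Figure D4:**
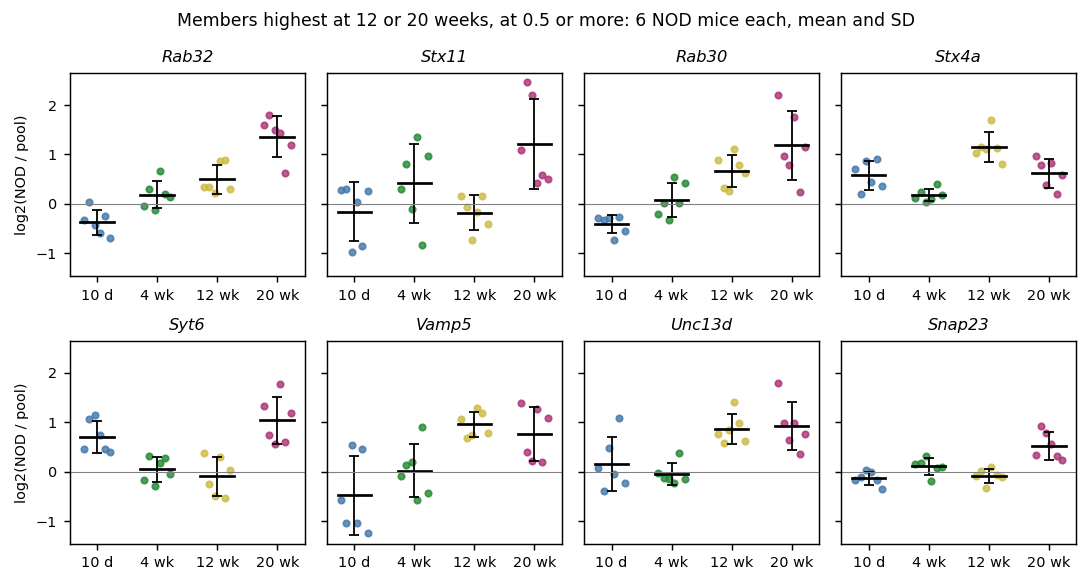
Log2 ratio of each NOD mouse over the pool of its age for the 8 members whose highest mean was at 12 or 20 weeks and at least 0.5; points are mice in order of replicate, the long bar is the mean and the whisker the SD over 6 mice. Rab32 and Rab30 climb with age, Stx4a is highest at 12 weeks, Vamp5 and Unc13d are high at 12 and 20 weeks, and Stx11 and Snap23 are highest at 20 weeks, as is Syt6, whose 10 day mean is 0.71.

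Partners of the machinery outside the named families were read from a separate list. Of 84 partner genes listed (calcium channels, active zone scaffolds, Rab27 and its effectors, vesicle membrane proteins), 78 were tested. At 10 days 3 were called higher (1.61% of all genes) and 1 lower (2.36%). The higher ones were Rab27a, the granule GTPase that binds Sytl4, at 1.73 ± 0.65, and Baiap3, a Munc13-like protein of dense-core vesicles, at 1.64 ± 0.63. The last was Cadps, which primes such vesicles, at 1.32 ± 0.60 (SD, n = 6). Ppfia4, a liprin, was the 1 called lower, at -1.03 ± 0.26. Pclo, the active zone scaffold piccolo, was called lower at 4 weeks (-1.41 ± 0.22) and 20 weeks (-1.53 ± 0.73), and Cadps at 20 weeks (-1.03 ± 0.72). From 10 days to 4 weeks 10 partners were called lower (3.85% of all genes) and 1 higher (5.15%). Pclo was at -2.26, Baiap3 at -2.10, Rab27a at -2.08, Cadps at -2.04 and Syp, the vesicle protein synaptophysin, at -1.40. The median over the 78 partners was 0.17 at 10 days and -0.16 at 20 weeks, beside 0.15 and -0.11 over the members.

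Since a member is read through 1 probe, the other probes were set beside it. Of the 61 called values, 34 were of members with further probes above background, and in 32 of these 34 all further probes had the same sign as the brightest. In only 6 of the 34 did a further probe pass 2-fold. From 10 days to 4 weeks Syt13 differed by -2.89 by the brightest probe and -0.97 by the other, Rab3b by -1.81 and -0.43, and Rab37 by -1.40 and -1.60. Both exceptions in sign were Unc13a. Averaged over the probes of a gene, 8 members in place of 12 were called lower from 10 days to 4 weeks, and Vamp2 at 4 weeks was -0.60 and Stx4a at 12 weeks 0.85, neither called. Why the probes of a gene differ was not tested.

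**Figure D5:**
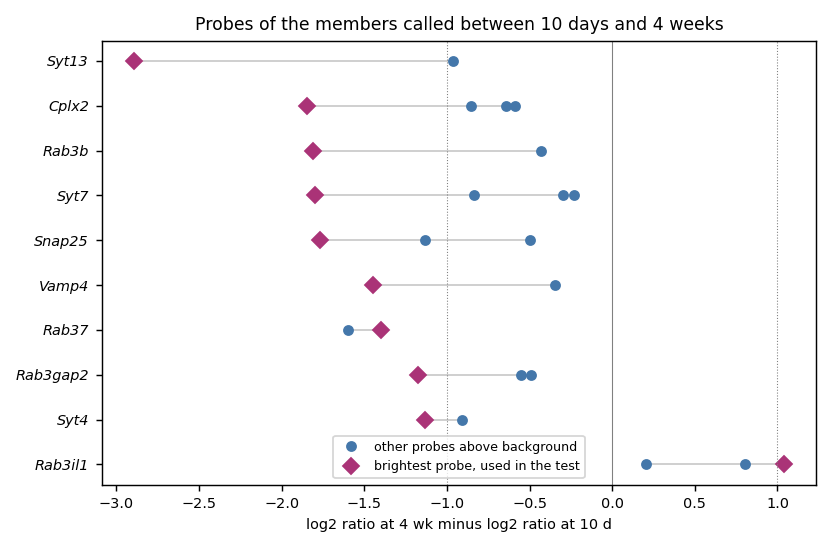
Difference of the mean log2 ratio between 4 weeks and 10 days (horizontal axis) for the brightest probe (diamond) and the other probes above background (circles) of 10 members called in this comparison; dotted lines mark 2-fold. Circles lie nearer to 0 than the diamond for 9 members and further from 0 for Rab37.

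The probes of 4 members on which these results turn are shown by their first 30 of 60 bases, as the scanner files give them, to let their targets be told apart. The Unc13a probes lie 33382 bases apart on chromosome 8 (mm9, minus strand, chr8:74184257-74184316 and chr8:74150875-74150934). Those of Syt13 lie 14827 bases apart on chromosome 2 (plus strand, chr2:92795818-92795877 and chr2:92780991-92781050). The brightest Vamp2 probe is at chr11:68905527-68905586, 2045 and 2035 bases beyond the starts of the others, which share 50 bases. The brightest Snap25 probe shares 40 bases with the Snap25 probe that read nearest to it, -1.13 against -1.77 from 10 days to 4 weeks, while the Snap25 probe elsewhere read -0.50.
Unc13a, brightest probe: cgggaatgcacgggctcatctcacagaaca
Unc13a, other probe: ttcttagcatgtgactgcaaaggtagaatc
Syt13, brightest probe: acatgtctggttacactttggagcacaaaa
Syt13, other probe: gtgacggccccagaagtcatcaactacgca
Vamp2, brightest probe: agtgtgagagagaaagcaagctatttcctt
Vamp2, other probe: tgatcatcttgggagtgatctgcgccatca
Vamp2, last probe: gggagtgatctgcgccatcatcctcatcat
Snap25, brightest probe: agacaatactcttgtgtggaaaacgtgaag
Snap25, overlapping probe: aaacgtgaagatcttctaagtctggctctt
Snap25, other probe: ccctgtaacaagcttaaatccagtgatgct

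RefSeq promoters (GRCm38.p6, 250 bases before to 50 after the start) were matched to 61 of the 79 members and searched on both strands for 6 strings. These were the left part of the RE1 element bound by REST, a repressor of neuronal genes (TTCAGCACC), and its right part. The right part is the reverse complement of the run of capitals that opens the Unc13a sequence given with these results. The others were TGACGTCA, the cyclic AMP response element, CAGCTG, an E-box form, GGGCGG, the GC box, and TATAAA. Copies of a string may overlap each other, as GC boxes do in Rab3b. GGGCGG was in a promoter of 45 of the 61 members (73.8%) and of 38.2% of all 27025 genes, CAGCTG in 18 (29.5%) and 18.3%, and TATAAA in 4 (6.6%) and 15.7%. TGACGTCA was in 1 member, Stxbp3a, and in 2.03% of all genes. The RE1 parts were both found in 1 member, Unc13a, and in 0.433% and 0.167% of all genes. They lie from base 5 to base 31 after its start, and are shown in capitals, both as the reverse complement of the string searched. Each part was searched for on its own with no set spacing, so the pair is not shown to be a full RE1 element. The 27025 genes are all those with a promoter entry, whereas the members also had to be above background. The shares are thus over unlike sets of genes. A match is a string of letters and not a site shown to be bound.
Unc13a, chr8:71671727-71671753, minus strand: GGCGCTGTCCgcgcccccGGTGCTGAA

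The 200 bases before the start are shown for 4 members whose ratio to the pool was called lower at 4 weeks than at 10 days. In the NOD channel itself Rab3a and Sytl4 rose over this interval, by 0.49 and 0.79, and Cplx2 and Rab3b fell, by 0.56 and 0.16. These strings are in capitals, and for Rab3a, which has 2 entries, the first is shown. Rab3a holds 1 GC box in this window, Rab3b several GC boxes and a TATAAA, Cplx2 a single CAGCTG, and Sytl4 none of the 6 strings in this window.
Rab3a, chr8:70754503-70754702, plus strand: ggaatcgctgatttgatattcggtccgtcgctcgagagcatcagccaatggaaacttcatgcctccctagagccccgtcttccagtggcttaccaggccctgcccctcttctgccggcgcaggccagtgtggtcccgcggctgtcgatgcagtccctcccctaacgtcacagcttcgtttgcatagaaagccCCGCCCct
Rab3b, chr4:108878870-108879069, plus strand: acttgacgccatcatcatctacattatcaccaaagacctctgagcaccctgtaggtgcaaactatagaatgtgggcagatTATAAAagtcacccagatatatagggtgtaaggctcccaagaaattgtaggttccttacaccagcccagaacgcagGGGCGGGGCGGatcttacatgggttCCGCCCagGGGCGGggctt
Cplx2, chr13:54302356-54302555, plus strand: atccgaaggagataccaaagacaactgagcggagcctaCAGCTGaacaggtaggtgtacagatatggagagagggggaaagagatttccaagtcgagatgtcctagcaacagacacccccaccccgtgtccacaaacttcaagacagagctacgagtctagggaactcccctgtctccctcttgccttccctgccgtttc
Sytl4, chrX:133981813-133982012, minus strand: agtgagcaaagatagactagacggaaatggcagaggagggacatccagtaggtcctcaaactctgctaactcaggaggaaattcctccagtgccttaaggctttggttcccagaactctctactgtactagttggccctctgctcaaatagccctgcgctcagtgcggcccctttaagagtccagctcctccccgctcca

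Of the 10 genes of the pattern left out, among them Syt2, Syt8, Syt15, Syt17, Stx19, Stxbp5l, Rims4, Unc13c and Cplx4, none had a probe well above background on more than 5 arrays. Syt15 was just outside the limit with 5 arrays, and Syt14 and Cplx3 just inside with 6. The 79 members passed through either channel at any age, so a low level at 1 age did not remove them.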

How the data were processed

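Islet RNA (300 ng) was hybridised to Whole Mouse Genome 4×44K arrays, and the deposited scanner files, written by Feature Extraction 10.7.3.1 per the file headers, hold mean and background intensity for each channel. The table of values that the authors deposited holds log2 ratios of 22088 probes, not median-centred (column medians -0.182 to 0.0868), and tracks the scanner's own log10 ratio with a slope of 0.9997 to 1.0001 after conversion to log2. It was used as an alternative.

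Background was corrected by normexp (offset 50) and ratios were normalised within each array by loess, with the 1639 control spots at weight 0 and outlier spots left out (limma 3.58.1, statmod 1.5.0, R 4.3.3 with version 1.17.8 of data.table). Spots of a probe were averaged, probes well above background in a channel on fewer than 6 arrays were dropped, and the probe with the highest mean signal stood for a gene. A mean per age over 24 arrays was fitted with lmFit and eBayes and p-values were adjusted by Benjamini-Hochberg. Mice are separate animals, so the spread is biological, while the 4 pools, taken as 1 per age, have none. Replicate numbers did not pair mice. The code was tested on simulated data.

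Members and gene lists were chosen with earlier results of these data known. Members are named within their role group, except a few that are not reported here, values are given for the called ones, and Stx1a, Snap25, Vamp2, Syt7, Unc13a, Rab3a and Cplx2 are described whatever their result. Partners are named where called, at most 6 per comparison. Of the marker lists (beta, other endocrine, acinar, duct, T, B and plasma, NK, macrophage and dendritic, endothelial, stellate and fibroblast, Schwann cell and neuron) only Chga, Ins2, Cd3d, Cpa1 and Col1a2 could be named. Alternatives covered background, scaling, probe choice, filters, slide, array weights, replicate block and leaving out mice.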

Additional observations from a re-analysis of the deposited data

Results flagged for a closer look

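Over 312 groups of 6 mice (a reported member at an age), 11 held a mouse far from the rest by Dixon's test (3.53%), where chance gives about 1 group in 20. Both of the widest gaps in a called member were in 20 week replicate 5: Syt13 at -4.60 with the nearest mouse at -1.43, and Rab3a at -2.36 with the nearest at -1.08. In 10 day replicate 2, Stxbp3a was at 1.18 (nearest 0.69), Stx1a at -0.53 (nearest -0.31) and Stx8 at -0.29 (nearest 0.04). At 4 weeks, Syt12 was at 1.36 in replicate 4 (nearest 0.36), Unc13d at 0.38 in replicate 5 (nearest -0.03) and Rab33a at 0.31 in replicate 3 (nearest 0.15). Rab39 was at 0.59 in 10 day replicate 1 (nearest 0.26) and at -0.11 in 12 week replicate 4 (nearest 0.03), and Cplx3 at -0.16 in 12 week replicate 1 (nearest -0.06), both genes close to background.

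The ratio of 37 reported member and interval pairs differed between ages by limma's test of the difference and by 2-fold. From 10 days to 4 weeks the differences were -2.89 for Syt13, -2.21 for Sytl4, -1.85 for Cplx2, -1.81 for Rab3b, -1.80 for Syt7, -1.77 for Snap25, -1.57 for Rab3a, -1.45 for Vamp4 (-1.445 before rounding), -1.40 for Rab37, -1.18 for Rab3gap2, -1.13 for Syt4, 1.04 for Rab3il1 and 1.225 for Syt10. From 4 to 12 weeks they were 1.13 for Rab3a, -1.16 for Syt10 and -1.75 for Unc13a. From 12 to 20 weeks they were -1.16 for Rab3a, 1.39 for Stx11, 1.13 for Syt6 and 1.42 for Unc13a.

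From 10 days to 20 weeks, an interval that shares its 10 day mice with the first, the differences were -3.16 for Syt13, -2.99 for Sytl4, -2.13 for Cplx2, -2.11 for Rab3b, -1.74 for Syt7, -1.66 for Vamp4, -1.63 for Snap25, -1.62 for Rab3gap2, -1.595 for Rab37, -1.59 for Rab3a, -1.10 for Syt4 and -1.01 for Stx7. Over the same interval 5 rose: Rab32 by 1.73, Rab30 by 1.59, Stx11 by 1.37, Vamp5 by 1.245 and Rab3il1 by 1.17.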

How the results depend on the processing

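Of the 61 called values, all 61 kept their direction and stayed called with the scanner's processed signals, the deposited value table, an offset of 10, no filter on dim probes or a filter on 12 arrays, outlier spots kept, trended and robust eBayes, a replicate block or slide as a random block. The replicate block left the count by the F test at 64. Median centring kept 46, ended 13 and reversed 2: Syt10 from 4 to 12 weeks became 0.24 and Syt6 from 12 to 20 weeks -0.15. The mean over probes kept 43, array weights 53, and leaving out 20 week replicates 5 and 6 kept 51. The cause of each change was not tested.

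Counts of members are given as higher and lower or, where only 1 side is named, as the side that moved. With processed signals they were 15 and 2 at 10 days and 4 and 7 at 4 weeks. At 12 weeks they were 8 and 7 and at 20 weeks 5 and 23. Between ages they were 7 and 25 from 10 days to 4 weeks and 10 and 8 from 4 to 12 weeks. They were 6 and 7 from 12 to 20 weeks and 7 and 29 from 10 days to 20 weeks. With the deposited table (69 members) they were 13 and 2, 3 and 4, 6 and 6, and 5 and 17 at the 4 ages. Between ages, in the same order, they were 6 and 19, 6 and 7, 6 and 2, and 7 and 22. With median centring they were 25 and 0, 0 and 8, 18 and 1, and 1 and 15 at the 4 ages. Between ages they were then 0 and 36, 36 and 0, 0 and 37, and 0 and 39. With an offset of 10, 1 was lower at 10 days, 4 higher and 3 lower at 12 weeks, 4 higher from 4 to 12 weeks and 5 higher from 12 to 20 weeks. With the mean over probes 1 was lower at 4 weeks, 0 higher at 12 weeks, 4 lower at 20 weeks, 1 higher from 10 days to 4 weeks and 1 lower from 4 to 12 weeks. Array weights gave 10 higher at 10 days, 1 lower at 20 weeks and 0 lower from 12 to 20 weeks. From 12 to 20 weeks slide as a random block gave 3 lower, as a fixed block 1 higher, and slide 5 alone 0 and 0. Without 20 week replicates 5 and 6, 0 were lower at 20 weeks, and 5 higher and 0 lower from 12 to 20 weeks.

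Leaving out 1 mouse at a time, limma called 5 to 10 higher and 0 to 1 lower at 10 days, 0 higher and 3 to 5 lower at 4 weeks, 1 to 2 higher and 1 lower at 12 weeks, and 2 to 5 higher and 1 to 8 lower at 20 weeks. Between ages it called 1 to 2 higher and 12 lower from 10 days to 4 weeks, 1 to 4 higher and 2 lower from 4 to 12 weeks, 2 to 4 higher and 0 to 2 lower from 12 to 20 weeks, and 5 higher and 11 to 15 lower from 10 days to 20 weeks. The shifts over 1.5 times were as follows. At 10 days there were 10 higher without 10 day replicate 2 or 4, and 1 lower without replicate 3. From 10 days to 4 weeks there was 1 higher without 10 day replicate 2 or 6 or 4 week replicate 3 or 5. Without 4 week replicate 5 there were also 5 lower at 4 weeks and 4 higher from 4 to 12 weeks. Without 12 week replicate 2 or 3 there were 2 higher at 12 weeks, and without replicate 6, 2 higher from 4 to 12 weeks. At 20 weeks there were 2 higher without 20 week replicate 1, 1 lower without replicate 5 and 4 lower without replicate 6. From 12 to 20 weeks there were 2 lower without 20 week replicate 2 and 0 lower without replicate 5. Ages share slides only on slides 1 and 5, so for the others slide and age cannot be told apart.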
